A study of Mus musculus with 42 samples.

Results

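Clodronate liposomes are lipid vesicles that phagocytes take up and that kill the cells which swallow them, and PBS liposomes are the empty control. The comparison described here sets carotid intima from mice given clodronate liposomes against carotid intima from mice given PBS liposomes, both after 48 h of low flow. It was chosen by treatment label alone, and it covers 6 of the 42 samples of the series. These are 2 clodronate and 2 PBS pools sequenced with 150 bp reads, and a further pair of 1 clodronate and 1 PBS pool that was sequenced separately with 100 bp reads.

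All mice were male C57BL/6J of 6 to 7 weeks. Each had a partial carotid ligation, which leaves the left carotid artery under low and disturbed flow, and received 150 µL of PBS or clodronate liposomes through the tail vein at the time of that surgery. RNA was flushed from the luminal face of the artery, and each library was made from a pool of 3 to 5 such flushes, so a library holds endothelium together with whatever cells adhered to it. The labels do not say whether the pools came from separate cohorts. The p-values below measure spread between pools, which in the 150 bp fit is estimated over 7 groups of 2 libraries, not the liposome pools alone. Liposome controls from the contralateral artery under high flow (2 libraries, PBS liposomes) were sequenced with 150 bp reads too, as were contralateral arteries of mice given IgG (2 libraries). Both enter the 150 bp fit. Low-flow arteries of mice given a platelet-depleting anti-GPIba antibody at ligation, a granulocyte-depleting anti-Gr1 antibody 24 h before it, or IgG (2 libraries each) enter the same fit and are used at the end.

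Monocytes leave the blood where flow is low, adhere to endothelium that displays adhesion molecules and chemokines, and become macrophages in the vessel wall. Macrophages and monocytes depend on the receptor for colony-stimulating factor 1 for survival. They share most of their surface machinery, such as Fc receptors, integrins, formyl peptide receptors and the NADPH oxidase, with neutrophils. In bulk RNA of this kind, fewer adherent cells and less RNA per cell cannot be told apart.

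The 150 bp libraries held 16840362 and 17814922 counts with PBS liposomes and 14945496 and 14481614 with clodronate. The 100 bp pair held 10105538 (PBS) and 11427294 (clodronate). A single count in a 1 kb transcript was thereby worth 0.0561 to 0.0691 FPKM in the 150 bp libraries, where FPKM is fragments per kilobase of effective transcript length, scaled to the library total. Endothelial markers were abundant in all of them, at 0.604% to 1.2% of counts for a list of 16 genes. Thyroid and skeletal muscle lists stayed at or under 0.000709%. Clodronate library 1 stood apart from the others. Over log2 CPM it correlated at 0.941 with clodronate library 2, while the PBS libraries correlated with each other at 0.976. Its correlation with the anti-GPIba libraries reached 0.978 and 0.979. A list of 24 mitosis genes took 0.00973% of its counts against 0.259% in clodronate library 2, and in the PBS libraries it took 0.0337% and 0.276%. The total counts of called genes, and those of the leukocyte lists over the 3 pairs, are therefore given below with and without that library.

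The first question is which transcripts differed between clodronate and PBS liposomes in the 150 bp libraries. Genes that passed included the receptors Csf1r, Cd14, C5ar1 and Fcgr3, the leukocyte integrin chain Itgb2 and the secreted protein Chi3l3, and all that passed in edgeR were lower with clodronate. In edgeR's quasi-likelihood test with Benjamini-Hochberg adjustment, 16 of 13401 tested genes passed an adjusted p of 0.05 (0.119%). Of these, 6 are in one of the leukocyte marker lists used below. At an unadjusted p under 0.05 there were 2002 (998 lower and 1004 higher). The log2 fold changes of the 16 ran from -7.96 to -2.68 with a median of -3.31, against a median of -0.02 over all genes tested. Both clodronate libraries lay under both PBS libraries for all 16, a pattern that 21.0% of all tested genes shared. The adjusted p-values, 0.0367 to 0.0492, lay close to the threshold, and Lsp1 (0.0508), Fcgr4 (0.0518), Cd53 (0.0548), Il1r2 (0.0548) and Il1b (0.0570) were next outside it. The number of calls depended on single libraries. It was 29 without PBS library 1, 0 without PBS library 2 (803 at an unadjusted p under 0.05), 0 without clodronate library 1 (422 at an unadjusted p under 0.05) and 937 without clodronate library 2, with the 16 genes among the calls in the first and last of these. DESeq2 called 467 genes on all libraries (240 lower, 227 higher) and 375 on the liposome libraries alone (297 lower, 78 higher), the 16 among them in both. On those 4 libraries alone edgeR called 0 (1215 at an unadjusted p under 0.05). For a single gene the exact permutation test of 2 libraries against 2 cannot go below a two-sided p of 0.333.

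The receptors are described first. Csf1r, the receptor for colony-stimulating factor 1, stood at 15.3 and 29.5 FPKM in the PBS libraries and at 1.67 and 1.83 FPKM in the clodronate libraries. The groups did not overlap, and the log2 fold change was -3.78 (SE 0.60, edgeR adjusted p = 0.0484). Cd14, the co-receptor that presents bacterial lipopolysaccharide to Toll-like receptor signalling, stood at 36.0 and 108 FPKM with PBS and at 5.88 and 3.98 FPKM with clodronate, a log2 fold change of -3.97 (SE 0.53, edgeR adjusted p = 0.0367). The PBS libraries differed widely from each other for Cd14, and both still lay above both clodronate libraries. C5ar1, the receptor for complement fragment C5a (mm9, chromosome 7, 16832092 to 16844889), stood at 14.5 and 24.5 FPKM with PBS and 1.17 and 2.53 FPKM with clodronate. Its log2 fold change was -3.49 (SE 0.49, edgeR adjusted p = 0.0415).

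Both partners of the low-affinity Fc receptor complex for IgG fell. Fcgr3, which binds the antibody (mm9, chromosome 1, 172981300 to 172995066), stood at 43.2 and 86.3 FPKM with PBS and at 7.08 and 7.14 FPKM with clodronate. Fcer1g, the signalling chain that it needs (mm9, chromosome 1, 173159703 to 173164496), stood at 103 and 188 FPKM with PBS and at 15.1 and 14.8 FPKM with clodronate. The clodronate libraries matched each other closely for this pair, at SDs of 0.0393 and 0.228 FPKM, and the log2 fold changes were -3.29 and -3.39 (SE 0.52 and 0.53, both edgeR adjusted p = 0.0484). Reads from the closely related Fcgr genes may be shared between copies, so the split among them is uncertain.

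Adhesion and signalling proteins of leukocytes fell by smaller factors. Itgb2, the beta chain common to the leukocyte integrins (mm9, chromosome 10, 76992997 to 77028453), stood at 21.4 and 37.2 FPKM with PBS and at 3.47 and 4.39 FPKM with clodronate. This is a log2 fold change of -2.99 (SE 0.40, edgeR adjusted p = 0.0367). Ptpn6, the phosphatase SHP-1 that damps immune receptor signals, stood at 16.9 and 31.8 FPKM against 2.83 and 3.83 FPKM, and Laptm5, a lysosomal membrane protein of blood cells, at 34.4 and 70.0 FPKM against 7.75 and 9.74 FPKM. Laptm5 had the smallest change of the 16, -2.68 (SE 0.42, edgeR adjusted p = 0.0484).

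The remaining genes encode secreted proteins, enzymes and a transcription factor. Chi3l3, a chitinase-like protein secreted by myeloid cells, stood at 134 and 237 FPKM with PBS and at 15.5 and 12.2 FPKM with clodronate (log2 fold change -3.85, SE 0.51, edgeR adjusted p = 0.0367). Its near-identical relatives make its share of the reads uncertain. Pla2g7, the plasma platelet-activating factor acetylhydrolase (mm9, chromosome 17, 43705047 to 43749150), stood at 32.6 and 67.2 FPKM against 7.03 and 4.83 FPKM, and Tgfbi, an extracellular matrix protein that macrophages secrete, at 31.8 and 65.3 FPKM against 4.86 and 5.99 FPKM. Napsa, an aspartic protease, stood at 25.2 and 52.3 FPKM with PBS and at 3.11 and 5.17 FPKM with clodronate. Pygl, a glycogen phosphorylase, was the scarcest of these enzymes, at 5.55 and 13.7 FPKM against 1.62 and 1.39 FPKM. Cebpb, a transcription factor of myeloid differentiation and of acute inflammation (mm9, chromosome 2, 167514415 to 167515918), stood at 144 and 216 FPKM with PBS and at 16.1 and 23.1 FPKM with clodronate.

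Treml4, a receptor of the TREM family on myeloid cells (mm9, chromosome 17, 48403659 to 48414726), had the largest change. It held 219 and 399 counts with PBS and 0 and 2 counts with clodronate, and 265 counts against 3 in the 100 bp pair. Over the 150 bp libraries the ratio of the rates was 262, with an exact 95% interval of 72.3 to 2170 that covers counting error only. The last of the 16, listed as LOC100038947, was read at 17.5 and 35.7 FPKM with PBS and at 0.745 and 1.92 FPKM with clodronate, and may share reads with similar copies.

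**Figure D1:**
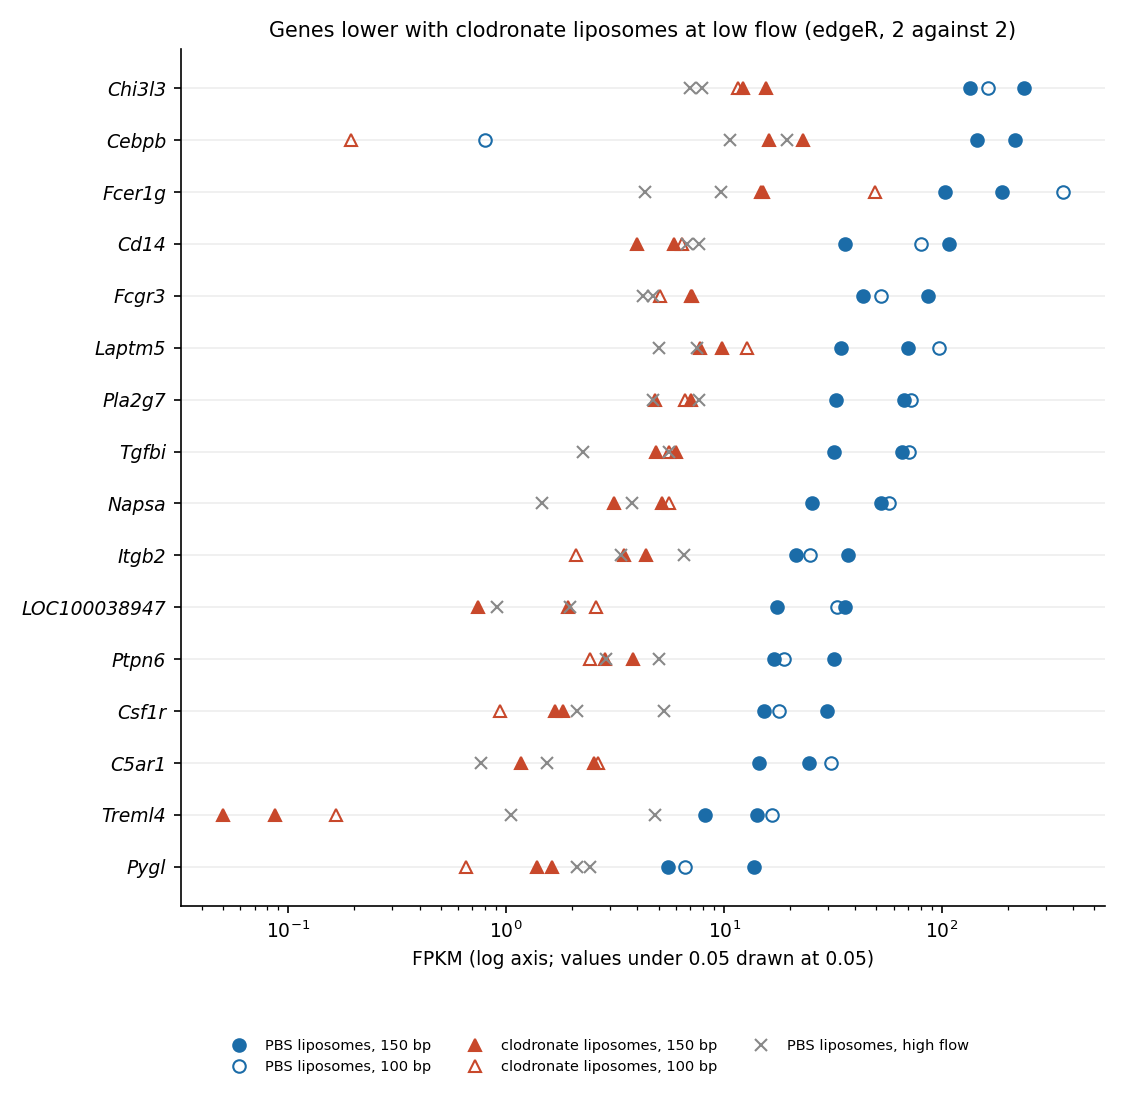
Levels of the 16 genes that passed the 150 bp test, in FPKM on a log axis, with 1 point per library for PBS liposomes, clodronate liposomes, the 100 bp pair (open) and PBS liposomes at high flow (crosses), values under 0.05 FPKM being drawn at 0.05. For every gene both clodronate points of the 150 bp set lie under both PBS points, and the 100 bp clodronate point lies under its PBS point.

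The 100 bp pair took no part in that test, though whether its mice were others than those of the 150 bp pools is not stated in the labels. All 16 were under their PBS value there, and all 16 at a log2 ratio of -1 or less. Over all genes with a count in this pair, 44.1% were under PBS and 5.53% were at a log2 ratio of -1 or less. The log2 ratios of the 16 genes ran from -5.17 to -1.06 with a median of -3.32, against 0.06 over the genes tested at 150 bp. Csf1r stood at 17.8 FPKM with PBS and 0.938 FPKM with clodronate in this pair, and Cd14 at 80.2 and 6.40 FPKM. Itgb2 stood at 24.8 and 2.09 FPKM and Chi3l3 at 163 and 11.6 FPKM. These are values of 1 library each, with no test. Cebpb was barely read in the 100 bp libraries, at 0.8 FPKM from 11 counts with PBS and 0.193 FPKM from 3 counts with clodronate. Its level differed more between the sequencing sets than between the treatments.

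Promoters of these genes, which were all selected as lower, were searched for letters of a site of the myeloid factor PU.1. Sfpi1, which encodes PU.1, was among the genes lowered in all 3 pairs (below) but not among the 16. Whether PU.1 had a part in these changes was not tested. RefSeq promoter windows of 300 bases, from 250 before to 50 after the start on GRCm38.p6, were found for 11 of the 16 genes, in 12 windows. The letters searched on both strands were GAGGAA, the core of the PU.1 purine box, and the longer GAGGAAGT, which contains it. GAGGAA was present in 3 of the 11 genes, against 31.3% of 27025 genes in the table. GAGGAAGT was present in none of the 12 windows, against 3.20% of all 32851 windows. The core was in 4 windows, of which 2 belong to Fcgr3 and overlap. The first Fcgr3 window and those of Laptm5 and Treml4 are shown with the core in capitals, where it reads TTCCTC because it lies on the opposite strand. Fcgr3 is at chr1:171059354-171059653 on the minus strand, Laptm5 at chr4:130913066-130913365 on the plus strand and Treml4 at chr17:48264045-48264344 on the plus strand.
Fcgr3: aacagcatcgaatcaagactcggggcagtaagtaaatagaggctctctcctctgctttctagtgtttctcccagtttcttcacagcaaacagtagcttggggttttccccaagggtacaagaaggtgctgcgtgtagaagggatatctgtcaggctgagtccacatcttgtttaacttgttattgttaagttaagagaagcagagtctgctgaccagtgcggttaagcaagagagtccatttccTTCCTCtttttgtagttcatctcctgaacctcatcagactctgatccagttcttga
Laptm5: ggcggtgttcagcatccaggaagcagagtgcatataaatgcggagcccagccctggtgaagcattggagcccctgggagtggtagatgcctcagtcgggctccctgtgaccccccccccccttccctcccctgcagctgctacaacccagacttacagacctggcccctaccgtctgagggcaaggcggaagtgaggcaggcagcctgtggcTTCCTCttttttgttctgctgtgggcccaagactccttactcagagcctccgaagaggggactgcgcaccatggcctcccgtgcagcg
Treml4: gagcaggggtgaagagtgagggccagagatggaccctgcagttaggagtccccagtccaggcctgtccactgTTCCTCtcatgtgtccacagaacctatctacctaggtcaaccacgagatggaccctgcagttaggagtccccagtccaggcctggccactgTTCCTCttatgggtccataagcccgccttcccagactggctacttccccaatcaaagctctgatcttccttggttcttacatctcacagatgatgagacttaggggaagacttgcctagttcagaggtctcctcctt
The core lies 6 bases to 1 base before the Fcgr3 start of the window shown and 15 to 10 bases before that of the other (chr1:171059345-171059644), 38 to 33 bases before the Laptm5 start, and at 178 to 173 and 87 to 82 bases before the Treml4 start. Matches of letters are given as a description of these windows only. Cd14, Csf1r, Itgb2, LOC100038947 and Napsa were not matched.

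The 100 bp pair was then added as a further pair, with the read length as a block. The labels do not say whether its pools came from other mice than the 150 bp pools, so its independence is not known. Genes called in this fit included Cd300e, Il1b, Mmp12 and Ccr2 on the lower side and Ahsg on the higher. In edgeR 215 of 12360 genes passed (1.74%). Of these, 203 were lower with clodronate (1.64%) and 12 were higher (0.0971%). At an unadjusted p under 0.05 there were 741 lower and 1288 higher, and DESeq2 called 491 lower and 385 higher. Of the 203, 34 are in a leukocyte marker list and 60 in any list used below. All 16 genes of the first test were among the 203. The lowered genes had log2 fold changes of -9.07 to -1.47 with a median of -3.23, against 0.03 over all genes tested, and for every one of them each clodronate library lay under the PBS libraries of its own set. Without clodronate library 1 the fit called 189 lower and 20 higher, and 172 of its calls were among the 215 (164 of the 203 lower and 8 of the 12 higher genes). Without PBS library 2 it called 48 genes, all of them lower, and without clodronate library 2 it called 343, at 188 lower and 155 higher. Without either 100 bp library the other had no partner, and no gene passed (1228 at an unadjusted p under 0.05 without the PBS library and 1193 without the clodronate library).

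**Figure D2:**
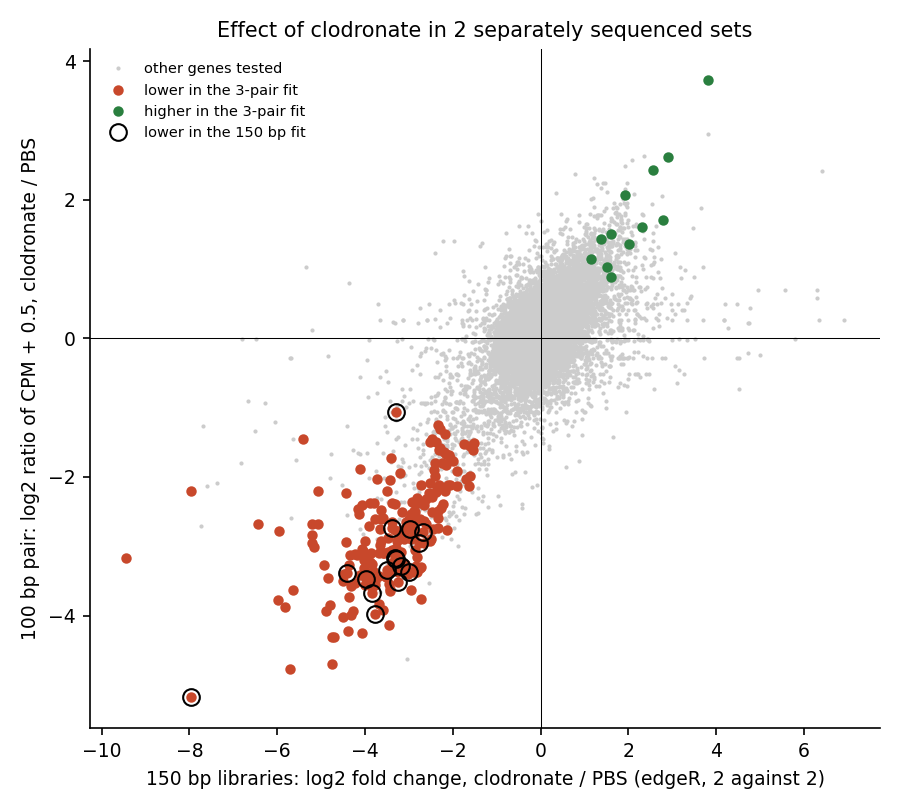
Each point is a gene tested at 150 bp, placed by its fitted log2 fold change in the 150 bp libraries (horizontal axis) and by its log2 ratio in the 100 bp pair (vertical axis), with the called genes coloured. The 203 lowered genes fall at the lower left and the 12 raised genes at the upper right; across all genes Pearson's r was 0.67, a description over genes that are not independent.

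Several of the largest losses were in genes that clodronate libraries barely held. Cd300e, an activating receptor of monocytes (mm9, chromosome 11, 114913231 to 114923491), was read at 2.73 and 2.89 FPKM with PBS and had no count in any clodronate library. Against a floor of 3 counts over the group, its level at 150 bp was at least 49.8-fold lower. Pira6, a paired immunoglobulin-like receptor with many similar copies, likewise had 64 counts with PBS and 0 with clodronate at 150 bp, at least 18.1-fold lower. Il1b, the inflammatory cytokine interleukin-1 beta (mm9, chromosome 2, 129190306 to 129196875), stood at 59.0 and 288 FPKM with PBS and at 2.43 and 4.61 FPKM with clodronate, and at 136 against 4.29 FPKM in the 100 bp pair. The PBS libraries of Il1b spread widely, and every one still lay far above the clodronate libraries (log2 fold change -5.39, SE 0.68, edgeR adjusted p = 0.0193). Mmp12, the macrophage elastase, stood at 2.91, 8.31 and 2.86 FPKM with PBS and at 0.0193, 0.219 and 0.101 FPKM with clodronate, the last of each being the 100 bp library. Clec5a, a C-type lectin receptor, and Mefv, which encodes pyrin, had log2 fold changes of -5.24 and -5.76 (SE 0.65 and 0.85, edgeR adjusted p = 0.0193 and 0.0268). Prdm1, Rhov and Skint3 completed the 10 largest losses, with 119, 154 and 50 counts in the PBS libraries at 150 bp and 1, 3 and 1 in the clodronate libraries.

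Families of myeloid receptors were picked after the values were seen and are given as counts in the edgeR fit of 3 pairs, where 1.64% of all genes fell. All 4 tested Fcgr genes fell, as did 5 of 6 Cd300 genes, 4 of 5 genes of the Trem family, 4 of 8 Ms4a genes, 8 of 18 Clec genes, 2 of 8 Toll-like receptors and both tested formyl peptide receptors. Clec4e, which senses fungal and mycobacterial glycolipids, stood at 7.43 and 19.3 FPKM with PBS against 0.620 and 0.901 FPKM with clodronate, with 13 against 0.882 FPKM in the 100 bp pair. Fpr1, the receptor for bacterial formyl peptides, stood at 7.55 and 10.8 FPKM against 0.511 and 1.11 FPKM, with 13 against 1.71 FPKM in the 100 bp pair. Sfpi1 stood at 21.7 and 56.2 FPKM against 3.04 and 4.65 FPKM, a log2 fold change of -3.09 over the 3 pairs (SE 0.46, edgeR adjusted p = 0.0268). Irf5, a transcription factor of inflammatory macrophages, stood at 8.77 and 18.6 FPKM against 1.49 and 2.32 FPKM.

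Gene lists for each cell type give these counts with denominators. List counts at an unadjusted p under 0.05, here and below, are read against all genes at that threshold. These were 2002 of 13401 at 150 bp (998 lower, 1004 higher) and 2029 of 12360 over the 3 pairs (741 lower, 1288 higher). In the macrophage list, 2 of 20 tested genes fell in edgeR at 150 bp (0.119% of all genes) and 10 of 17 in the fit of 3 pairs (1.64% of all genes), and edgeR called none higher, while DESeq2 called 9 lower and 1 higher at 150 bp and 11 lower and 1 higher over the 3 pairs. The list's median log2 fold change was -2.39 at 150 bp and -2.19 over the 3 pairs. Cd68, an endosomal glycoprotein of macrophages, stood at 24.3 and 41.9 FPKM with PBS and at 6.43 and 7.19 FPKM with clodronate, with 53.5 against 17.2 FPKM in the 100 bp pair (3 pairs, log2 fold change -2.05, SE 0.30, edgeR adjusted p = 0.0260). Emr1, the F4/80 antigen, stood at 3.27 and 3.69 FPKM against 0.561 and 0.846 FPKM, with 4.69 against 1.16 FPKM in the 100 bp pair (-2.19, SE 0.29, edgeR adjusted p = 0.0223). Lyz2, lysozyme of granulocytes and macrophages and the most abundant of these genes, stood at 1180 and 1970 FPKM against 194 and 206 FPKM, and passed over the 3 pairs (-2.96, SE 0.28, edgeR adjusted p = 0.0168).

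Not every macrophage gene followed. The following members were chosen after their values were seen. C1qa and C1qb, subunits of the first complement component made by tissue macrophages, stood at 12.8 and 9.09 FPKM and at 41.2 and 25.8 FPKM with PBS, and at 7.35 and 2.43 FPKM and 16.3 and 10.4 FPKM with clodronate. The groups did not overlap for either gene at 150 bp, and neither passed over the 3 pairs (edgeR adjusted p = 0.330 and 0.102). Mrc1, the mannose receptor, and Cd163, the haemoglobin scavenger receptor, both of resident macrophages, were near the limit of reading at 0.207 to 1.29 FPKM in the 150 bp libraries, and their groups overlapped. Gpnmb, a glycoprotein of lipid-loaded and lysosome-stressed macrophages, went the other way at 0.293 and 0.215 FPKM with PBS and 2.09 and 1.21 FPKM with clodronate, and did not pass (edgeR adjusted p = 0.133 at 150 bp and 0.0725 over the 3 pairs).

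Monocyte genes were lower throughout. All 9 had both clodronate libraries under both PBS libraries, as did 21.0% of all tested genes. In edgeR 1 of them fell at 150 bp (0.119% of all genes) and 6 of 9 in the 3 pairs (1.64% of all genes), with medians of -3.02 and -3.23. Ccr2, the chemokine receptor that carries inflammatory monocytes out of the marrow and into tissue, stood at 14.7 and 24.3 FPKM with PBS and 1.36 and 1.70 FPKM with clodronate, and 23.0 against 1.70 FPKM in the 100 bp pair (3 pairs, -3.68, SE 0.26, edgeR adjusted p = 0.0168). Cx3cr1, the fractalkine receptor of patrolling monocytes, stood at 4.01 and 4.63 FPKM against 0.131 and 0.347 FPKM, with 5.85 against 0.244 FPKM (-4.29, SE 0.39, edgeR adjusted p = 0.0168). F13a1, coagulation factor XIII A of monocytes and platelets, fell less, at 8.27 and 9.33 FPKM against 2.74 and 3.41 FPKM (-1.71, SE 0.21, edgeR adjusted p = 0.0193).

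Genes common to all leukocytes were lower as well, and those of neutrophils in part. Of 14 pan-leukocyte genes, 3 fell in edgeR at 150 bp (13 at an unadjusted p under 0.05, 11 by DESeq2) and 12 over the 3 pairs (14 and 13), with medians of -2.73 and -2.78. Over all genes edgeR called 0.119% and 1.64% lower in these fits. Ptprc, which encodes CD45, stood at 8.73 and 23.6 FPKM with PBS and 2.29 and 2.63 FPKM with clodronate, and passed in edgeR over the 3 pairs but not at 150 bp, where DESeq2 called it (-2.96, SE 0.40, edgeR adjusted p = 0.0231). Of 14 neutrophil genes, none passed in edgeR at 150 bp (7 at an unadjusted p under 0.05, 3 by DESeq2), and 5 of 11 fell in edgeR over the 3 pairs (9 at an unadjusted p under 0.05, 9 by DESeq2), with medians of -2.46 and -2.31. At 150 bp 9 of the 14 had negative and 5 positive values (up to 5.46), and 9 lay lower and 2 higher without overlap, against 21.0% and 30.5% of all genes. The median was -1.49 without PBS library 2. The 5 were Cxcr2, Csf3r, Il1r2, the surface antigen Cd177 and the granule collagenase Mmp8. Cxcr2, the receptor that draws neutrophils to CXC chemokines, stood at 6.25 and 23.7 FPKM against 1.02 and 1.45 FPKM, with 17.3 against 0.996 FPKM in the 100 bp pair (-3.75, SE 0.52, edgeR adjusted p = 0.0240). Csf3r, the receptor for granulocyte colony-stimulating factor, fell from 6.31 and 19.1 FPKM to 0.477 and 1.22 FPKM, and Il1r2, the decoy interleukin-1 receptor, from 18.9 and 81.1 FPKM to 1.67 and 2.19 FPKM, both past the threshold over the 3 pairs (edgeR adjusted p = 0.0285 and 0.0223). S100a8, an abundant calcium-binding protein of neutrophils, kept 20.7 and 27.5 FPKM with clodronate against 59.0 and 159 FPKM with PBS and did not pass (edgeR adjusted p = 0.0720). PBS library 2 was the higher of the PBS libraries for each of these neutrophil genes. Without clodronate library 1 the fit of 3 pairs called 9 macrophage, 6 monocyte, 11 pan-leukocyte and 5 neutrophil genes lower, and without PBS library 2 it called 4, 4, 5 and 1.

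The size of the loss is shown by the share of all counts that each list took. Macrophage genes took 0.135% and 0.225% of counts with PBS and 0.0266% and 0.0243% with clodronate, a ratio of 7.06, and 0.156% against 0.0224% in the 100 bp pair, a ratio of 6.98. Lyz2 alone made up 66.8% to 80.2% of that sum in these 6 libraries, and without it the ratios were 4.98 and 5.07. Monocyte genes gave ratios of 8.69 and 9.39, pan-leukocyte genes 6.36 and 7.25, and neutrophil genes 5.61 and 4.59. Without the most abundant gene of each (Chi3l3, Coro1a and S100a9) these were 6.20 and 7.84, 6.64 and 7.14, and 5.58 and 4.79. The neutrophil share was 0.0156% and 0.0473% with PBS and 0.00575% and 0.00548% with clodronate. Without PBS library 2 the 150 bp ratios were 5.29 for macrophage, 5.99 for monocyte, 4.04 for pan-leukocyte and 2.78 for neutrophil genes, and without PBS library 1 they were 8.83, 11.4, 8.68 and 8.43. For comparison, the high-flow PBS libraries held macrophage genes at 0.0134% and 0.0224% of counts. They are set beside the low-flow values without a test. These lists still held counts with clodronate, and no monocyte or pan-leukocyte gene was at 0 in either 150 bp clodronate library.

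**Figure D3:**
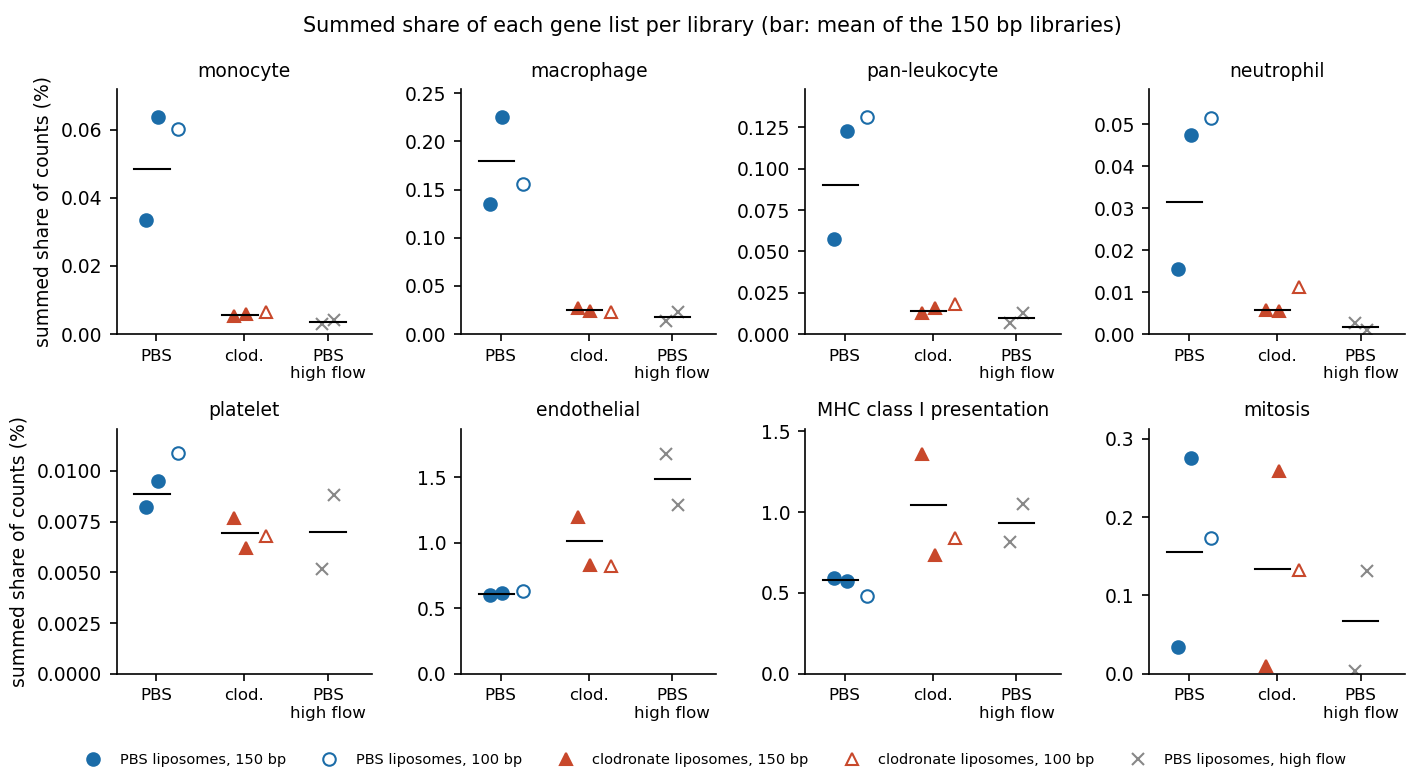
Summed share of all counts, in percent on linear axes from 0, for 8 gene lists, with 1 point per library for PBS and clodronate liposomes at low flow (150 bp filled, 100 bp open) and PBS liposomes at high flow, and bars for the means of the 150 bp libraries. The macrophage, monocyte, pan-leukocyte and neutrophil points are lower with clodronate in both sequencing sets, as are the platelet points, at ratios of PBS to clodronate of 1.28 and 1.60, and the mitosis points of the 150 bp groups overlap.

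Effector genes of myeloid cells were examined next. Of 8 tested genes of the phagocyte NADPH oxidase, 5 fell over the 3 pairs, against 1.64% of all genes (Cybb, Ncf1, Ncf4 and Rac2 among them). None passed in edgeR at 150 bp (7 at an unadjusted p under 0.05, 3 by DESeq2, median -2.33), with both clodronate libraries under both PBS libraries for 7, as for 21.0% of all genes. Cybb, its catalytic membrane subunit, stood at 10.4 and 20.5 FPKM with PBS and 1.25 and 1.51 FPKM with clodronate (3 pairs, -3.67, SE 0.32, edgeR adjusted p = 0.0168), and Ncf4, a cytosolic subunit, had a log2 fold change of -3.30. Among 17 interleukin-1 and other inflammatory cytokine genes the median was -1.05 at 150 bp, none passed there in edgeR (7 at an unadjusted p under 0.05, 5 by DESeq2), and 5 of 16 fell over the 3 pairs. Beside Il1b, Il1r2 and oncostatin M (Osm) these were its natural antagonist Il1rn (6.66 and 23.3 FPKM with PBS, 0.561 and 0.976 FPKM with clodronate) and Il18, another cytokine cut by caspase-1 (3.29 and 4.66 FPKM against 1.02 and 0.574 FPKM).

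Chemokine receptors and chemokines were counted separately. Of 12 receptor genes none passed in edgeR at 150 bp (7 lower and 2 higher at an unadjusted p under 0.05, 2 lower and 1 higher by DESeq2, median -2.64), and 5 of 9 fell over the 3 pairs, among them Ccr1, Ccr2, Cx3cr1 and Cxcr2. Over all genes 1.64% fell in that fit. Of 22 chemokine genes none passed in edgeR at 150 bp (6 lower and 1 higher at an unadjusted p under 0.05, 2 lower by DESeq2, median -0.69, and -1.29 and -0.13 without clodronate library 1 and 2 in turn), and 3 of 21 fell over the 3 pairs. These were Ccl6 and Ccl9, which myeloid cells secrete, and the neutrophil attractant Cxcl3. Ccl6 stood at 186 and 186 FPKM with PBS and 31.3 and 47.8 FPKM with clodronate. Cxcr7, an atypical receptor of endothelium that scavenges CXCL12, stood at 48.6 and 33.5 FPKM with PBS and at 256 and 91.4 FPKM with clodronate, and did not pass (edgeR adjusted p = 0.149 at 150 bp and 0.0859 over the 3 pairs).

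Antigen presentation was read as a class II and a class I list, and the difference between them was not tested. Of 9 genes of the class II list, which dendritic cells, macrophages and B cells use, none passed in edgeR at 150 bp (6 at an unadjusted p under 0.05, 2 by DESeq2, median -1.55) and 2 fell over the 3 pairs (1.64% of all genes), the costimulatory ligands Cd80 and Cd86, which are not class II molecules themselves. Cd86 stood at 1.98 and 6.59 FPKM with PBS and 0.615 and 0.231 FPKM with clodronate (-3.63, SE 0.62, edgeR adjusted p = 0.0440). H2-Ab1, a class II beta chain, stood at 97.2 and 214 FPKM against 52.6 and 52.5 FPKM and did not pass in edgeR (edgeR adjusted p = 0.263 at 150 bp and 0.0784 over the 3 pairs). DESeq2 called it over the 3 pairs (DESeq2 adjusted p = 0.000269). Of 10 class I genes, which every nucleated cell uses, none passed in either edgeR fit (4 and 9 at an unadjusted p under 0.05, 0 and 2 by DESeq2), and all 10 had both clodronate libraries above both PBS libraries at 150 bp and the clodronate library above PBS at 100 bp. Over all tested genes 30.5% lay higher without overlap at 150 bp, and 55.9% were higher with clodronate in the 100 bp pair. The class I median was 0.85 at 150 bp and 0.32 without clodronate library 1. H2-D1 stood at 1550 and 1470 FPKM with PBS and 3670 and 1980 FPKM with clodronate, and may share reads with other class I genes. Tapbp, which loads peptides onto class I, stood at 181 and 131 FPKM against 495 and 225 FPKM (edgeR adjusted p = 0.239 at 150 bp and 0.222 over the 3 pairs).

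The lists in this paragraph are read against the 0.119% of all genes that fell in edgeR at 150 bp and the 1.64% over the 3 pairs. Lysosome and phagocytosis genes, a list that endothelium expresses too, had medians near that of all genes, 0.14 at 150 bp and 0.17 over the 3 pairs. In edgeR Fcgr3 was the single call at 150 bp (DESeq2 called 4 lower and 1 higher), and 4 of 23 fell over the 3 pairs (4 lower and 2 higher by DESeq2), namely the Fc receptors Fcgr2b, Fcgr3 and Fcgr4 and the protease Ctss. Cathepsin S, the product of Ctss, trims antigens for class II, and its transcript stood at 84.4 and 148 FPKM with PBS and 10.8 and 15.1 FPKM with clodronate. Of 18 complement genes C5ar1 fell in edgeR at 150 bp and 4 of 17 fell over the 3 pairs (C5ar1, C3ar1, Cfp and Itgax). At 150 bp 7 genes were lower and 7 higher without overlap, against 21.0% and 30.5% of all genes, and DESeq2 called 3 lower and 4 higher there and 5 lower and 4 higher over the 3 pairs. Its median was 0.32 at 150 bp and -0.77 without clodronate library 1. Of 9 genes of iron and haem handling, 2 fell over the 3 pairs and none passed in edgeR at 150 bp (2 lower and 1 higher at an unadjusted p under 0.05, 1 lower and 1 higher by DESeq2). They were Slc11a1, the phagosomal metal transporter (9.15 and 23.1 FPKM with PBS, 1.02 and 1.02 FPKM with clodronate), and Hp, the haemoglobin-binding haptoglobin (55.6 and 101 FPKM against 30.1 and 28.2 FPKM).

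Lymphoid and platelet lists held no gene called by edgeR. Of the T and NK cell genes, 12 tested at 150 bp and 10 over the 3 pairs, none passed in either edgeR fit (0 and 5 at an unadjusted p under 0.05, 0 and 2 by DESeq2), and the medians were 0.25 and 0.79. Cd3e, a chain of the T cell receptor complex, stood at 0.368 and 0.348 FPKM with PBS and at 1.76 and 1.18 FPKM with clodronate, with 1.53 against 4.2 FPKM in the 100 bp pair (edgeR adjusted p = 0.466 at 150 bp and 0.0984 over the 3 pairs). B cell genes were near the limit of reading in all libraries, at 0.000201% to 0.000368% of counts. Of 12 platelet genes none passed in either edgeR fit (1 and 2 at an unadjusted p under 0.05, 1 and 1 by DESeq2, with 7 of the 12 tested over the 3 pairs). Their median of 0.33 at 150 bp became -0.65 without clodronate library 1 and 0.82 without clodronate library 2. Their summed share was 0.00822% and 0.00952% with PBS and 0.00766% and 0.00619% with clodronate. Pf4, platelet factor 4, stood at 44.9 and 19.6 FPKM with PBS and 21.8 and 8.86 FPKM with clodronate, so the groups overlapped, and Ppbp, the precursor of another platelet chemokine, stood at 10.6 and 11.9 FPKM against 14.8 and 7.23 FPKM. In the dendritic cell list, 1 of 8 genes fell in edgeR over the 3 pairs, against 1.64% of all genes. It was Itgax, the CD11c integrin that monocytes and macrophages also carry, while Zbtb46, a factor of classical dendritic cells and endothelium, stood at 5.43 and 4.54 FPKM against 10.2 and 4.97 FPKM. The calls in this list were 2 without PBS library 1 and 0 without PBS library 2.

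Endothelial identity and the flow response were examined next, since the endothelium is the tissue under study. Of 16 endothelial genes none passed in either edgeR fit (4 in each at an unadjusted p under 0.05, 2 in each by DESeq2, medians 0.17 and 0.29). At 150 bp 8 of the 16 lay higher without overlap, against 30.5% of all genes, and the median was 0.31 without clodronate library 2 and 0.11 without PBS library 1. Cdh5, the vascular cadherin of endothelial junctions, stood at 42.6 and 46.4 FPKM with PBS and 35.2 and 44.6 FPKM with clodronate. Pecam1, the platelet endothelial adhesion molecule, stood at 438 and 386 FPKM against 1380 and 736 FPKM and did not pass (edgeR adjusted p = 0.164 at 150 bp and 0.214 over the 3 pairs). The summed endothelial share was 0.604% and 0.617% with PBS and 1.2% and 0.835% with clodronate, with 0.631% against 0.822% in the 100 bp pair. The smooth muscle share was 0.632% and 0.327% with PBS and 0.270% and 0.299% with clodronate. The part of this mixture in the results above was not tested.

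Of the flow-responsive endothelial genes, 22 tested at 150 bp and 21 over the 3 pairs, none passed in either edgeR fit (2 lower and 3 higher, then 2 lower and 6 higher at an unadjusted p under 0.05, 1 lower and 1 higher, then 1 lower and 2 higher by DESeq2, medians -0.05 and 0.14), although a few had large differences between libraries. Klf2, the transcription factor that high laminar flow induces, stood at 24.4 and 24.6 FPKM with PBS, 56.3 and 40.7 FPKM with clodronate and 488 and 357 FPKM in the high-flow PBS libraries. Its low-flow groups did not overlap, but Klf2 did not pass in edgeR (edgeR adjusted p = 0.423 at 150 bp and 0.0859 over the 3 pairs). DESeq2 called it over the 3 pairs (DESeq2 adjusted p = 0.00564). Both clodronate libraries stayed far under the high-flow level. Angpt2, a Tie2 ligand of activated endothelium, stood at 395 and 113 FPKM with PBS, 7.98 and 47.2 FPKM with clodronate and 0.712 and 1.58 FPKM at high flow (edgeR adjusted p = 0.177 at 150 bp). Esm1 and Apln, markers of endothelial tip cells chosen after their values were seen, were at 0 and 0.0445 FPKM in clodronate library 1 but at 83.6 and 14.8 FPKM in clodronate library 2.

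None of the adhesion molecules named here on the endothelial face passed. Vcam1, which holds monocytes through VLA-4, stood at 590 and 387 FPKM with PBS and 1060 and 612 FPKM with clodronate. Icam1, the ligand of the beta-2 integrins, stood at 298 and 167 FPKM against 518 and 307 FPKM, and Sele, E-selectin, at 125 and 75.2 FPKM against 37.4 and 89.0 FPKM. Vcam1 and Icam1 were higher without overlap, Sele overlapped, and edgeR adjusted p-values at 150 bp were 0.360, 0.329 and 0.696. Of 12 adhesion genes edgeR called 1 lower over the 3 pairs and none at 150 bp (2 lower and 3 higher at an unadjusted p under 0.05 in each fit), while DESeq2 called 1 lower and 1 higher at 150 bp and 2 lower and 1 higher over the 3 pairs. Over all genes edgeR called 1.64% lower over the 3 pairs and 0.119% lower at 150 bp. The edgeR call was Selplg, the P-selectin ligand on leukocytes, which stood at 10.9 and 30.0 FPKM against 2.80 and 4.15 FPKM and passed over the 3 pairs (-2.55, SE 0.40, edgeR adjusted p = 0.0305). Fn1, fibronectin, stood at 57.5 and 38.7 FPKM with PBS and 36.6 and 30.7 FPKM with clodronate, and Rbfox2, a splicing regulator, at 4.59 and 6.90 FPKM against 2.75 and 5.2 FPKM, and neither passed (edgeR adjusted p = 0.566 and 0.389 at 150 bp).

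Cell division genes depended on the pool. Of 24 mitosis genes none passed in either edgeR fit (0 at an unadjusted p under 0.05 and 0 by DESeq2 in both, medians -0.29 and -0.27), and the clodronate and PBS libraries overlapped for all 24. Cdk1, the kinase that drives mitosis, stood at 11.6 and 75.9 FPKM with PBS and at 1.65 and 63.5 FPKM with clodronate, and Mki67, the proliferation antigen, chosen after its values were seen, at 1.17 and 8.44 FPKM against 0.357 and 10.6 FPKM. The 100 bp pair stood at 51.1 and 46.8 FPKM for Cdk1. The median of the list was -4.31 at 150 bp without clodronate library 2 and 1.95 without PBS library 2. The same overlap held for all 23 DNA replication genes.

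Tissue remodelling genes were read as 2 lists. Of 16 genes of matrix proteases and their inhibitors none passed in edgeR at 150 bp, where the median was -1.16. Before adjustment, 3 lower and 2 higher genes had an edgeR p under 0.05 there, and DESeq2 gave 2 lower and 2 higher. Over the 3 pairs 2 of the 16 fell in edgeR, against 1.64% of all genes. They were Mmp12 and Mmp8, both of myeloid cells. In those pairs 7 lower and 2 higher genes were under 0.05 before adjustment, and DESeq2 gave 4 lower and 2 higher. Timp2, a metalloproteinase inhibitor of many tissues, stood at 286 and 226 FPKM with PBS and 939 and 423 FPKM with clodronate, without overlap, and did not pass (edgeR adjusted p = 0.180 at 150 bp and 0.151 over the 3 pairs). Of 21 extracellular matrix genes none passed in either edgeR fit (2 lower and 3 higher, then 3 lower and 4 higher at an unadjusted p under 0.05, 1 lower and 2 higher in each by DESeq2, medians -0.06 and -0.04). Spp1, osteopontin, which macrophages and smooth muscle secrete, stood at 170 and 127 FPKM with PBS and 53.6 and 16.4 FPKM with clodronate (edgeR adjusted p = 0.244 at 150 bp), and Eln, elastin, at 108 and 57.2 FPKM against 400 and 220 FPKM (edgeR adjusted p = 0.262 at 150 bp and 0.0643 over the 3 pairs). Neither gene overlapped between the groups, and they lay on opposite sides.

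Genes induced by interferon lay mostly on the higher side. Of 20 such genes 17 had positive values, with a median of 0.74, and 12 had both clodronate libraries above both PBS libraries (30.5% over all genes), but none passed in edgeR at 150 bp or among the 19 tested over the 3 pairs (1 lower and 6 higher, then 0 lower and 8 higher at an unadjusted p under 0.05, 0, then 1 lower and 2 higher by DESeq2). The median was 0.27 without clodronate library 1. Stat2, which carries the type I interferon signal, stood at 4.02 and 3.13 FPKM with PBS and 11.5 and 5.43 FPKM with clodronate, with 3.91 against 4.82 FPKM in the 100 bp pair. Clodronate library 1 was the higher one, and the change did not pass (edgeR adjusted p = 0.241 at 150 bp).

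Genes of glycolysis and the response to low oxygen lay mostly on the lower side, at a median of -0.68 over 17 genes, with none past the threshold in either edgeR fit (5 and 4 at an unadjusted p under 0.05, 0 and 2 by DESeq2). The median was -0.26 without clodronate library 1 and -1.31 without clodronate library 2. Gapdh, the glycolytic dehydrogenase, stood at 1890 and 2330 FPKM with PBS and 789 and 1770 FPKM with clodronate, so that library 1 was again the more distant. Of 23 splicing regulators none passed in either edgeR fit (4 and 0 at an unadjusted p under 0.05, 0 in each by DESeq2, medians -0.46 and -0.28, the first becoming -0.12 without clodronate library 1). Among all genes, 998 of 13401 and 741 of 12360 were lower at that unadjusted p. Hnrnpa2b1, an abundant splicing repressor, stood at 391 and 605 FPKM with PBS and 260 and 395 FPKM with clodronate, and Ptbp2, a regulator related to polypyrimidine tract-binding protein, at 7.19 and 5.61 FPKM against 4.28 and 4.48 FPKM (edgeR adjusted p = 0.285 and 0.319 at 150 bp). The groups of Hnrnpa2b1 overlapped and those of Ptbp2 did not.

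Markers of cells around the intima were also read, since a flush can carry them. All 10 tested adipocyte genes had positive values, with a median of 1.21, and 8 of them lay higher without overlap, against 30.5% of all tested genes. None passed in edgeR at 150 bp or among the 9 tested over the 3 pairs (2 and 5 at an unadjusted p under 0.05, 0 and 2 by DESeq2), and the summed share was 0.00479% and 0.00785% with PBS and 0.0147% and 0.0128% with clodronate. Among all genes, 1004 of 13401 and 1288 of 12360 were higher at that unadjusted p. The 10 fibroblast genes (9 tested over the 3 pairs) had a median of 0.73 at 150 bp with none past the threshold in edgeR (3 in each fit at an unadjusted p under 0.05, 0 in each by DESeq2), and this became -0.21 without clodronate library 1 and 1.26 without clodronate library 2. Their summed share was 0.0380% and 0.0275% with PBS and 0.0833% and 0.0318% with clodronate. The part of these cells in the raised genes below was not tested.

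The 12 genes that rose over the 3 pairs were in none of the lists, and none of them passed in edgeR at 150 bp, where no gene was called higher. Ahsg, which encodes the plasma protein fetuin-A, made mainly by liver, had the largest change. It stood at 3.30 and 2.95 FPKM with PBS and at 71.9 and 23.5 FPKM with clodronate, and at 2.60 against 35.9 FPKM in the 100 bp pair (log2 fold change 3.90, SE 0.45, edgeR adjusted p = 0.0184). The groups did not overlap, and without clodronate library 1 the change over the 3 pairs was 3.27. Atp1b1, the beta subunit of the sodium pump (mm9, chromosome 1, 166367398 to 166388486), stood at 7.35 and 5.15 FPKM with PBS, 56.9 and 22.9 FPKM with clodronate and 97.4 and 96.0 FPKM at high flow (2.61, SE 0.38, edgeR adjusted p = 0.0263). Gdf15, a stress-induced member of the TGF-beta family (mm9, chromosome 8, 73153292 to 73156355), stood at 2.15 and 2.99 FPKM with PBS, 10.2 and 11.9 FPKM with clodronate and 0.768 and 1.59 FPKM at high flow (1.93, SE 0.31, edgeR adjusted p = 0.0335).

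Other raised genes encode membrane and matrix proteins. Clic5, a chloride intracellular channel protein, stood at 1.37 and 0.970 FPKM with PBS and 7.81 and 4.64 FPKM with clodronate, with 49.5 and 24.3 FPKM at high flow. Col23a1, a transmembrane collagen, stood at 6.45 and 3.03 FPKM against 24.6 and 14.3 FPKM, and Aqp1, the water channel of endothelium and red cells, at 25.8 and 25.9 FPKM against 97.2 and 71.4 FPKM. Aqp1 and Gem, a small GTPase, were the smallest of the 12 changes, at 1.42 and 1.2, and were chosen after their values were seen. Vwa3a, Acpl2, Apol9b and 1190002N15Rik were also among them, with log2 fold changes of 1.42 to 3.18. In 11 of the 12 genes clodronate library 1 was the higher clodronate library at 150 bp, Gdf15 being the other.

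**Figure D4:**
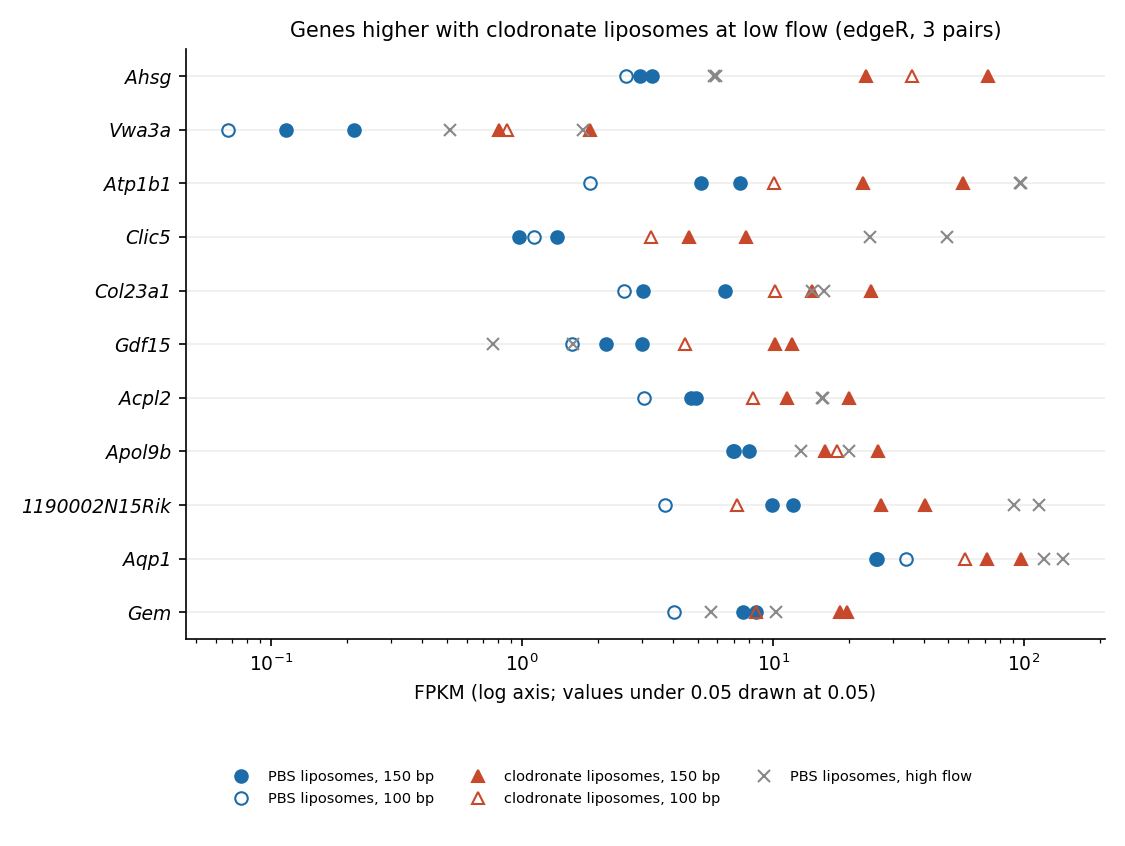
Levels of 11 of the 12 genes that rose over the 3 pairs, in FPKM on a log axis, with 1 point per library for PBS and clodronate liposomes at low flow (150 bp filled, 100 bp open) and crosses for PBS liposomes at high flow. In each gene the clodronate points lie above the PBS points of their own sequencing set, and clodronate library 1 is the higher clodronate library of the 150 bp set in all but Gdf15.

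Lastly, the clodronate change was set beside those of the other depletions, which had their own IgG control and shared no library with the liposome groups. Counts of calls in each comparison are given first and are not a test of their difference. Anti-GPIba against IgG gave 1405 lower genes (10.5%) and 811 higher genes (6.05%) of 13401 in the same edgeR fit. For anti-Gr1 against IgG, edgeR called 0 genes lower and 0 higher (0.0%), DESeq2 called 179, and 2432 had an unadjusted edgeR p under 0.05. All 16 clodronate genes were also called lower with anti-GPIba (median -3.83), whereas with anti-Gr1 all 16 had negative values without passing (median -1.21, range -2.33 to -0.79). Of the 203 genes lowered over the 3 pairs, 176 were called lower with anti-GPIba, which is 86.7% of the 203 and 12.5% of the 1405. Of the 12 raised genes 8 were called higher with anti-GPIba, and Gem had a value of -0.68 there.

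The list medians are set side by side here as descriptions. Neutrophil genes had medians of -2.46 with clodronate, -4.21 with anti-GPIba and -3.21 with anti-Gr1, and macrophage genes -2.39, -2.03 and -0.14. The clodronate change was more negative than the anti-Gr1 change for 19 of 20 macrophage genes, at a median difference of -2.10, and less negative for 10 of 14 neutrophil genes, at a median difference of 0.51. Differences were also tested gene by gene. Clodronate minus anti-GPIba gave 0 of 13401 genes by edgeR (0.0%, with 434 at an unadjusted p under 0.05) and 0 by DESeq2. Clodronate minus anti-Gr1 gave 0 by edgeR (0.0%, with 217 at an unadjusted p under 0.05) and 1 by DESeq2, Treml4, at a log2 difference of -7.18 (DESeq2 adjusted p = 0.0458). Mitosis genes had a median of -5.63 with anti-GPIba, where all 24 were negative and 5 passed, and of -3.68 with anti-Gr1, against the pool-dependent -0.29 with clodronate.

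**Figure D5:**
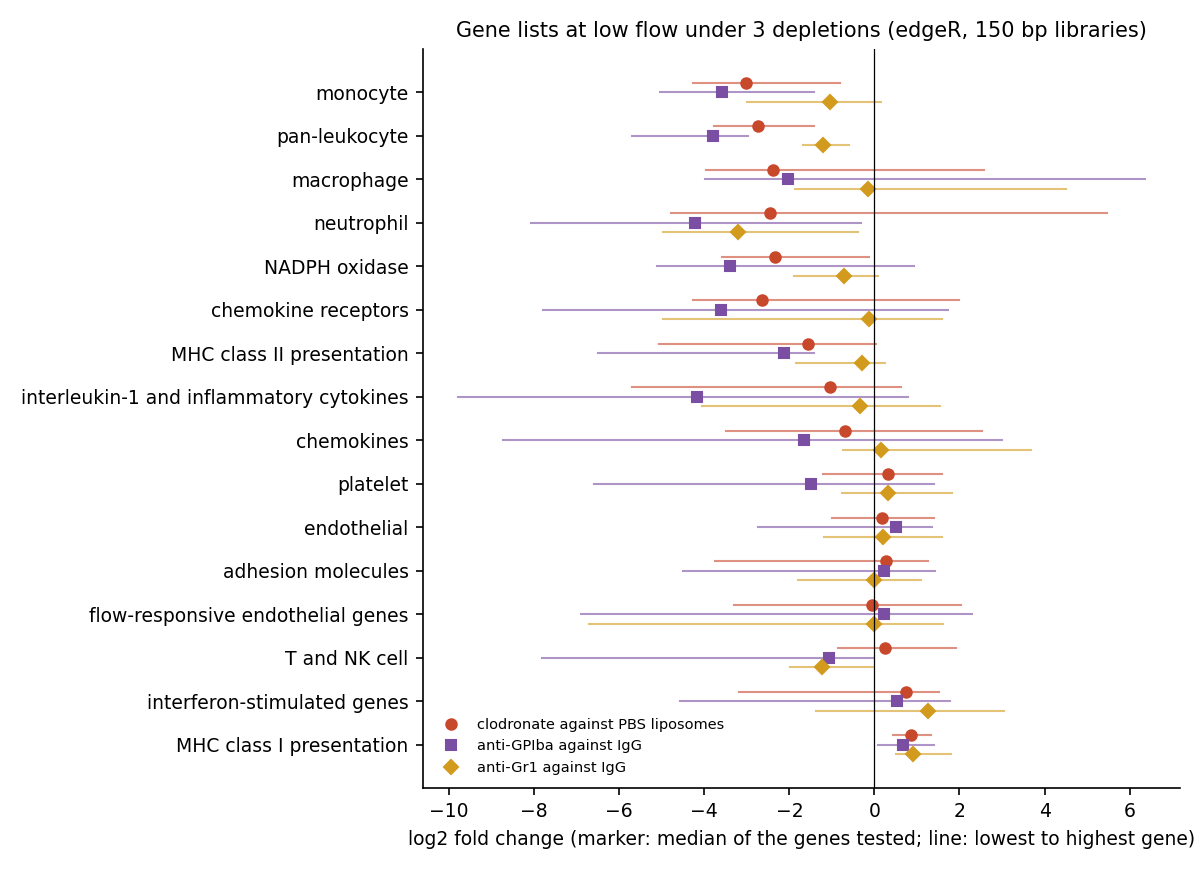
Median log2 fold change of each gene list (point) with the range over its tested genes (line), for clodronate against PBS liposomes, anti-GPIba against IgG and anti-Gr1 against IgG, all from 1 edgeR fit of the 150 bp libraries. Macrophage medians were -2.39, -2.03 and -0.14 in that order, and neutrophil medians -2.46, -4.21 and -3.21.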

How the data were processed

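RNA (polyA RNA per the labels) flushed from the carotid intima was measured by RNA-seq, amplified with the SMARTer Universal Low Input kit. The authors mapped reads with STAR 2.5.1b and quantified RefSeq transcripts of mm9 with RSEM 1.2.15, per the submitters' processing notes and the study's methods. The aligner used for the 100 bp pair is not given clearly in the sources used here. They deposited expected counts per gene, which need not be whole. The 2 sequencing runs of each 100 bp library were summed. Counts were rounded to whole numbers, 1 entry that names no gene (at most 0.0609% of counts) was left out of 21675, and 182 of 206 value columns in the table belong to other samples or measures and were not used. The authors deposited no FPKM values used here: FPKM were computed from the counts, the table's effective lengths and each library's total. Without strand, reads of overlapping genes cannot be told apart.

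Genes were tested with edgeR 4.0.16 in R 4.3.3 (TMM, filterByExpr, quasi-likelihood test, Benjamini-Hochberg adjustment over all genes tested, threshold 0.05). The 150 bp fit held 14 libraries in 7 groups of 2 (low-flow PBS, clodronate, IgG, anti-GPIba and anti-Gr1, and high-flow PBS and IgG), which share 1 estimate of the spread, because 2 libraries against 2 give a poor one. The study's methods name DESeq2 in a design of 2 conditions, which was fitted here as an alternative on the liposome libraries alone. The 3-pair fit held the 6 liposome libraries with the read length as a block. The 100 bp pair alone has 1 library per group and was given no test; its log2 ratios used a pseudocount of 0.5 CPM. Scripts were tested on simulated data in which 200 genes were given a log2 change of 2. In the 150 bp layout edgeR recovered 93 of them and called 4 unchanged genes, and DESeq2 recovered 131 and called 48 unchanged genes. In the layout of 3 pairs edgeR recovered 148 and called 7 unchanged genes, and DESeq2 recovered 170 and called 34. The DESeq2 counts given beside those of edgeR are to be read with this limit. DESeq2 1.42.0, other scalings, filters and designs, and leaving out each library, were alternatives. Where a single gene is said not to pass, edgeR is meant, and DESeq2 called some of these genes. Trimmed reads, list shares without the most abundant gene or 1 library, and list calls without 1 library, were chosen after seeing the data. Gene coordinates are those of the mm9 annotation and promoter windows those of RefSeq on GRCm38.p6.

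Members, gene lists and naming rule were chosen with earlier results of these data known. Named were all genes called at 150 bp without overlap, the 10 largest changes in each direction over the 3 pairs, up to 4 genes with the smallest p from each list, and a set of anchor genes (Ptprc, Cd68, Emr1, Itgam, Csf1r, Cxcr2, S100a8, Ppbp, Pf4, Pecam1, Cdh5, Klf2, Klf4, Vcam1, Icam1, Sele, Selp, Fn1, Rbfox2). Other names, given where a count of 5 or fewer is spelled out or where the text says so, were chosen after their values were seen. Results for some genes are not reported here.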

Additional observations from a re-analysis of the deposited data

Results flagged for a closer look

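Selp, which encodes P-selectin, moved opposite ways in the sequencing sets. Both 150 bp clodronate libraries (485 and 536 FPKM) lay above both PBS libraries (432 and 463 FPKM), while in the 100 bp pair clodronate (226 FPKM) lay under PBS (264 FPKM). The log2 difference from PBS was 0.09 in the 150 bp fit and the log2 ratio of the 100 bp pair was -0.12. The difference between the sets was not tested, and Selp passed in neither edgeR fit (adjusted p = 0.873 at 150 bp and 0.904 over the 3 pairs).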

How the results depend on the processing

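At 150 bp the 16 calls became 96 with the 5 low-flow groups only, 92 with no filter on low counts, 6 with at least 50 counts in 2 libraries, 467 with DESeq2, 375 with DESeq2 on the 4 liposome libraries alone, and 0 with edgeR on those 4 alone (1215 at an unadjusted p under 0.05). Leaving out 1 library gave 0 to 937. The 215 calls over the 3 pairs became 876 with DESeq2, 334 with no filter and 0 with no read-length block (1029 at an unadjusted p under 0.05), and leaving out 1 library gave 0 to 343 (48 without PBS library 2). With the authors' trimmed 100 bp reads the count was 203, with 189 shared. The cause of these differences was not tested. In every alternative with a fit, all 16 genes and all those of the 215 that were tested kept their sign. Clodronate minus anti-Gr1 gave 1 call with DESeq2. The macrophage list's median stayed between -2.60 and -1.87. Other 150 bp medians moved with 1 library, to -2.06 for cytokines without clodronate library 2, to -1.46 for chemokine receptors, -0.92 for the class II list, -0.63 for matrix proteases and 0.33 for flow-responsive genes without PBS library 2, to -0.09 and 0.47 for lysosome genes without clodronate library 1 and 2 in turn, and to 0.09 and -0.32 for extracellular matrix without PBS library 1 and 2 in turn. Without PBS library 2 the calls over the 3 pairs fell to 2 for NADPH oxidase, 3 for chemokine receptors, 3 for cytokines, 2 for lysosome genes, 1 for complement, 1 for iron handling and 0 for chemokines, the class II list, adhesion and matrix proteases. The class II list also had 4 without PBS library 1, 1 without clodronate library 1 and 0 without clodronate library 2. Iron handling had 1 without clodronate library 1 and 1 without clodronate library 2, cytokines 3 and adhesion 2 without clodronate library 2, and neutrophil genes 8 and matrix proteases 3 without PBS library 1. DESeq2 also moved the split, to 240 lower and 227 higher at 150 bp and 491 lower and 385 higher over the 3 pairs.

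With the replicate number as a block, the fit called 64 genes at 150 bp (49 lower, 15 higher) and 1035 over the 3 pairs (499 lower, 536 higher). The labels give no source for the pairing. Across genes the deviations of same-numbered clodronate and PBS libraries correlated at 0.472, with only 2 numbers.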
